A study of Mus musculus with 9 samples.

Results

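The genes described here are 10 parts of the bone morphogenetic protein (BMP) pathway. They are the ligand genes Bmp2, Bmp4 and Bmp7, the antagonist genes Chrd and Nog, the inhibitor gene Smad6 and the target genes Id1, Id2, Id3 and Id4. They were chosen by symbol from a table of 23453 gene symbols, and all 10 were in it. The mouse cells were wild-type by the study's account and came from naive embryonic stem cells (ESCs) through 3 culture states with 3 libraries each, 9 in all. Epiblast-like cells (EpiLCs) were made in 48 h in N2B27 medium with 1% KSR, a serum replacement, plus FGF2 and Activin A, which signals through the NODAL receptors. For aEpiLCs, the anterior-like state, EpiLCs spent a further 24 h in N2B27 basal medium according to the labels, and the methods of the study add KSR. For pEpiLCs, the posterior-like state, EpiLCs spent a further 24 h with Activin and CHIR99021, an agonist of WNT/β-catenin signalling. The methods of the study give N2B27 with 1% KSR as the base of both later media. The states therefore differ by more than 1 agent, and EpiLCs also differ from both later states by the time in culture. No BMP was named among the additions to any of the 3 media.

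BMP ligands bind pairs of serine/threonine kinase receptors, which phosphorylate SMAD1, SMAD5 and SMAD9. These enter the nucleus with SMAD4 and switch on targets, among them the Id genes and Smad6. CHRD and NOG bind BMP ligands outside the cell, SMAD6 blocks the signal inside it, and ID proteins hold back basic helix-loop-helix transcription factors. In the mouse embryo around gastrulation, BMP4 from the extraembryonic ectoderm acts on the proximal epiblast upstream of WNT and NODAL signals at the posterior side, whereas CHRD and NOG are made by the anterior primitive streak, the node and its derivatives.

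Library totals lay between 20560564 and 23417917 counts. At these depths 3 counts, taken as the detection limit, were worth at most 0.144 CPM (counts scaled to library size by edgeR's TMM method). Summed over 6 epiblast markers, the libraries held 4438 to 4750 CPM in EpiLCs, 4122 to 4343 in aEpiLCs and 1810 to 3088 in pEpiLCs. Dnmt3b, with means of 2670 CPM in EpiLCs and 1256 in pEpiLCs, made up most of this difference. Pou3f1 (202 and 32.5 CPM), Utf1 (464 and 76.9) and Otx2 (93.9 and 70.5) were also lower in pEpiLCs than in EpiLCs, whereas Pou5f1 had 1116 and 962 CPM and Fgf5 was higher in pEpiLCs, at 84.5 and 169 CPM. The sums of 4 posterior markers were at most 7.41 CPM in EpiLCs and aEpiLCs and 512 to 2185 CPM in pEpiLCs. The 3 anterior markers summed to 56.3 to 66.7 CPM in EpiLCs, 101 to 109 in aEpiLCs and 11.7 to 35.0 in pEpiLCs. Of markers of other cells, 5 of 7 listed for extraembryonic endoderm, 4 of 6 for trophoblast and 5 of 7 for fibroblasts were in the table. The extraembryonic endoderm and fibroblast markers summed to 3.64 to 8.48 and 13.5 to 24.2 CPM over the 9 libraries. The trophoblast markers summed to 7.91 to 8.94 CPM in EpiLCs, 2.35 to 4.17 in aEpiLCs and 3.33 to 3.59 in pEpiLCs, and Elf5, a trophoblast factor gene, had at most 3 counts in each library. Some single markers were higher in EpiLCs than in both later states. In EpiLCs, aEpiLCs and pEpiLCs the mean was 4.27, 0.51 and 0.72 CPM for Ascl2, 3.18, 1.85 and 0.46 CPM for Plet1, and 6.24, 1.70 and 0.24 CPM for Dcn, a fibroblast marker. Others of the same lists were highest in a later state. Gcm1 had means of 1.14, 0.82 and 2.23 CPM and Col1a2 1.56, 2.72 and 6.43 CPM in the same order. Thy1 had 10.1, 14.7 and 7.69 CPM. The part of these markers in the BMP pathway values was not tested. A single library stood apart from its group. Among 15797 genes that passed a filter on low counts, 324 and 331 differed more than 4-fold between pEpiLC replicate 1 and replicates 2 and 3, against 66 between replicates 2 and 3 and 57 to 76 within the other states. T, the gene of the streak factor TBXT, had 1093, 206 and 222 CPM in pEpiLC replicates 1, 2 and 3. Many of the values that replicate 1 moved, though not all, are therefore also given without it. The labels do not say that replicates came from separate cultures, so p-values measure the spread between these libraries, which may be technical.

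Scaled by exon length, the 10 genes were low to moderate in level, and Id3 was the highest of them in every state. In EpiLCs, Id3 had 2.97 ± 0.218 CPM per kb (SD, n = 3). Id2 followed with 2.50 ± 0.160, Id1 with 1.46 ± 0.0499 and Bmp4 with 0.953 ± 0.113, and the libraries of these neighbours did not overlap. Smad6 at 0.618 ± 0.250 CPM per kb overlapped with both Bmp4 and Chrd (0.472 ± 0.0891), and Bmp7 was lower still at 0.318 ± 0.0712. In aEpiLCs, Id3 at 10.1 ± 1.83 CPM per kb stood clear of Id2 (3.36 ± 0.515) and Id1 (3.15 ± 0.892), which overlapped with each other. Bmp7 at 1.32 ± 0.446 CPM per kb was above Bmp4 at 0.619 ± 0.183 in aEpiLCs, the opposite of their order in EpiLCs. In pEpiLCs, the libraries of Id3 (10.5 ± 4.69 CPM per kb), Bmp7 (8.02 ± 6.05) and Id1 (5.16 ± 5.29) overlapped, and replicate 1 was the highest in each. Bmp2 reached 1.16 CPM per kb in that library and was below Bmp4 in the mean. Chrd (1.68 ± 0.182), Id2 (1.65 ± 0.572) and Smad6 (1.31 ± 0.755) had lower means and were not separate from each other. Id1 overlapped with Id2 and Smad6 too, since its lowest library had 1.93 CPM per kb, below their maxima of 2.14 and 2.18. Id4 and Nog were at or below 0.137 CPM per kb in every library. Exon lengths came from GENCODE and may differ from those used for the deposited counts, so the order of close neighbours is approximate.

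**Figure D1:**
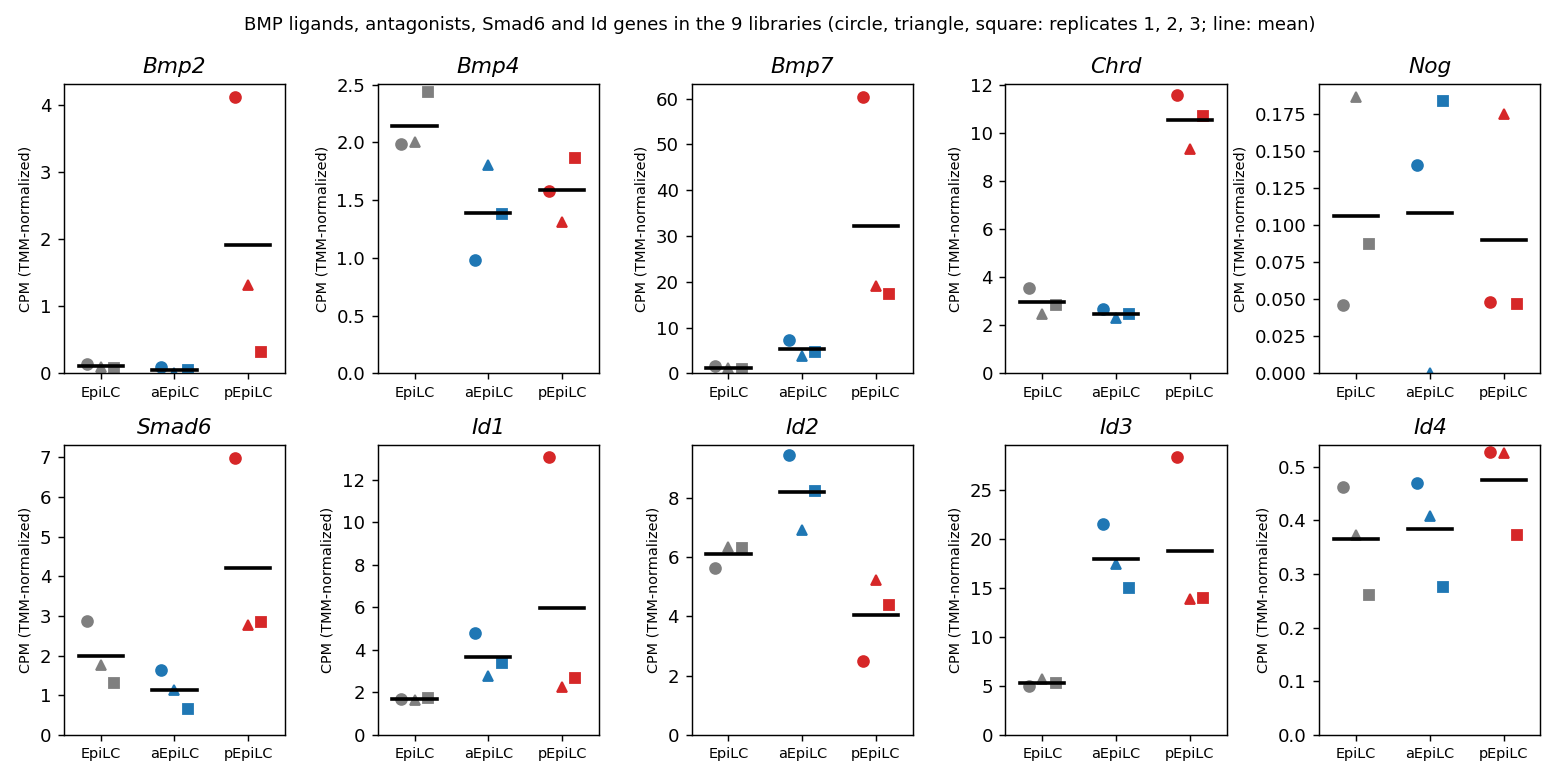
TMM-normalized CPM (vertical axes, each from 0) of the 10 genes in EpiLCs, aEpiLCs and pEpiLCs. Symbols are replicates 1 (circle), 2 (triangle) and 3 (square), and lines are means of 3 libraries. Bmp7 and Chrd have every pEpiLC library above every library of the other states, and pEpiLC replicate 1 is far above its neighbours for Bmp2, Bmp7, Smad6, Id1 and Id3 and below them for Id2.

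Of the 3 ligand genes, Bmp7 rose in both later states from EpiLCs and was higher in pEpiLCs than in aEpiLCs, a call lost without any 1 aEpiLC replicate, Bmp4 was not called in any comparison, and Bmp2 was detected above the limit in pEpiLCs alone. A gene is called here when edgeR's quasi-likelihood test gave an adjusted p below 0.05 over all genes tested and the log2 fold change was at least 1 in either direction. Bmp7 (ENSMUSG00000008999.7, GRCm38 chromosome 2, 172868012 to 172940321, minus strand) encodes a ligand that acts as a homodimer or together with BMP2 or BMP4. Its libraries had 1.57, 1.26 and 1.00 CPM in EpiLC replicates 1 to 3, 7.32, 3.89 and 4.69 CPM in aEpiLCs, and 60.3, 19.0 and 17.4 CPM in pEpiLCs. The 3 states did not overlap. From EpiLCs to aEpiLCs Bmp7 rose 4.10-fold, a log2 fold change of 2.04 (± 0.28, standard error, SE; adjusted p = 5.21e-05). From EpiLCs to pEpiLCs the log2 fold change was 4.65 (SE 0.58, adjusted p = 0.000907), or 25.2-fold, and without pEpiLC replicate 1 it was 3.83 (adjusted p = 3.45e-10), or 14.2-fold. Between the later states, Bmp7 was 6.05-fold higher in pEpiLCs (log2 fold change 2.60, SE 0.53, adjusted p = 0.0172). It was still called without pEpiLC replicate 1, at 1.77 (adjusted p = 8.09e-05). The call was lost without aEpiLC replicate 1, 2 or 3, where the adjusted p was 0.0517, 0.0850 and 0.0819, while the log2 fold change stayed between 2.42 and 2.90. In bulk RNA, a change in how many cells express a gene and a change in its RNA per cell cannot be told apart.

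Bmp4 (ENSMUSG00000021835.15, chromosome 14, 46383520 to 46390669, minus strand), the ligand gene best known from gastrulation, was measured at low counts. EpiLC libraries had 1.99, 2.00 and 2.44 CPM, aEpiLC libraries 0.985, 1.81 and 1.38, and pEpiLC libraries 1.58, 1.31 and 1.86. Every EpiLC library was above every library of the later states, which overlapped with each other. The log2 fold change was -0.64 (SE 0.27, adjusted p = 0.0731) in aEpiLCs against EpiLCs and -0.44 (SE 0.24, adjusted p = 0.171) in pEpiLCs against EpiLCs. Between pEpiLCs and aEpiLCs it was 0.18 (adjusted p = 0.743), and its sign turned without aEpiLC replicate 1 (-0.018). Bmp4 overlaps a gene on the opposite strand, and strandedness was not stated, so a part of its counts cannot be assigned with certainty.

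Bmp2 (ENSMUSG00000027358.6, chromosome 2, 133552159 to 133562885, plus strand), a close relative of Bmp4, had between 0 and 3 counts in every EpiLC and aEpiLC library. In pEpiLCs it had 86, 30 and 7 counts, which are 4.12, 1.31 and 0.326 CPM, so all 3 lay above the detection limit, and they differed 12.6-fold among themselves. Against the limit of 3 counts per library, the pEpiLC mean was at least 13.4-fold higher than either other state. With pEpiLC replicate 1 left out this bound was 5.71-fold. Bmp2 did not pass the filter on low counts in any comparison. When no filter was applied, it had an adjusted p of 0.00983 against EpiLCs and 0.0184 against aEpiLCs.

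Chrd and Nog, the antagonist genes, differed. Chrd rose in pEpiLCs against both other states, whereas Nog was near the detection limit and was not tested. Chrd (ENSMUSG00000006958.14, chromosome 16, 20733127 to 20742384, plus strand) encodes chordin, which binds BMP ligands and keeps them from their receptors. EpiLC libraries had 3.56, 2.47 and 2.83 CPM, aEpiLC libraries 2.67, 2.31 and 2.48, and pEpiLC libraries 11.6, 9.33 and 10.7. The pEpiLC libraries were all above the rest, while EpiLCs and aEpiLCs overlapped. The log2 fold change was 1.83 (SE 0.19, adjusted p = 0.000423) in pEpiLCs against EpiLCs and 2.07 (SE 0.16, adjusted p = 0.000361) in pEpiLCs against aEpiLCs, that is, 3.56-fold and 4.20-fold. Both calls were kept under all 14 other settings tried. Without pEpiLC replicate 1 the values were 1.76 and 2.00. In aEpiLCs against EpiLCs the log2 fold change was -0.26 (adjusted p = 0.344). Chrd shares 239 bases with Thpo on the opposite strand. Nog (ENSMUSG00000048616.4, chromosome 11, 89300638 to 89302332, minus strand) encodes noggin, a secreted BMP antagonist. It had 0 to 4 counts in all 9 libraries, with 4 counts, just above the limit, in 1 library of each state. A count of 0 allows up to 3 counts in a library, so levels up to 0.144 CPM cannot be told from none.

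Smad6 (ENSMUSG00000036867.7, chromosome 9, 63953076 to 64022059, minus strand), the inhibitory SMAD that acts on BMP receptors and is itself a BMP target, was higher in pEpiLCs than in aEpiLCs. EpiLC libraries had 2.87, 1.77 and 1.31 CPM, aEpiLC libraries 1.64, 1.13 and 0.644, and pEpiLC libraries 6.99, 2.76 and 2.84. The pEpiLC libraries lay above those of aEpiLCs, and EpiLCs overlapped with both. Smad6 rose by a log2 fold change of 1.87 (SE 0.49, adjusted p = 0.0392) in pEpiLCs against aEpiLCs, or 3.65-fold, and by 1.29 (adjusted p = 0.0206) without pEpiLC replicate 1. The call was lost without aEpiLC replicate 1, 2 or 3, with adjusted p of 0.0715, 0.135 and 0.128. Against EpiLCs, the log2 fold change was -0.81 (SE 0.37, adjusted p = 0.0895) in aEpiLCs and 1.08 (SE 0.45, adjusted p = 0.0874) in pEpiLCs. It was called lower in aEpiLCs when aEpiLC replicate 1 (-1.16, adjusted p = 0.0372) or EpiLC replicate 3 (-1.04, adjusted p = 0.0467) was left out, whereas the value was -0.45 (adjusted p = 0.396) without EpiLC replicate 1 and -0.52 (adjusted p = 0.263) without aEpiLC replicate 3. The value in pEpiLCs fell to 0.50 (adjusted p = 0.175) without pEpiLC replicate 1.

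Chrd and Smad6 were the called genes outside the Id family and the ligands, and the 250 bases before their annotated starts are shown because both were called higher in pEpiLCs than in aEpiLCs. Sequences are from RefSeq, on GRCm38.p6, for Chrd chr16:20732877-20733126 (plus strand) and for Smad6 chr9:64022060-64022309 (minus strand), written 5′ to 3′ on the strand of the gene. Capitals mark matches on either strand to the SMAD-type motifs GGCGCC and CAGAC or the TCF/LEF-type motifs CTTTGAT and CTTTGAA.
Chrd: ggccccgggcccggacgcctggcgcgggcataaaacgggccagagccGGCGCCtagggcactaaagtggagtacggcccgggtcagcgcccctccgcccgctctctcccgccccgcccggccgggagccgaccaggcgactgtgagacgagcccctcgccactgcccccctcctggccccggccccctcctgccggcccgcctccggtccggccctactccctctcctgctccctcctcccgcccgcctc
Smad6: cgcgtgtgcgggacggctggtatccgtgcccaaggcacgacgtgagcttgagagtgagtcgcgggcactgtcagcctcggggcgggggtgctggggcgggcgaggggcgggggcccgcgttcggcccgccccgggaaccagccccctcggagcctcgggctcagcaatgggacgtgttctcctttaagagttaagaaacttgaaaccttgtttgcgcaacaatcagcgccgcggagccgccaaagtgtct
The Chrd window had a GC content of 78.0% and 1 match, GGCGCC at position -203 from the start. The Smad6 window had 66.8% GC and no match to these letters. Windows were matched for 6 of the 10 genes (Bmp4, Chrd, Smad6, Id2, Id3 and Id4). Those of Id2 and Id3 share 161 and all 250 bases, respectively, with exons in the GENCODE models whose positions are given here, so they do not lie before those starts and their letters are not described. GGCGCC, which reads the same on both strands, also occurred once before Id4, and the Bmp4 window held no match. In 32851 promoter windows of the same length, GGCGCC occurred in 9.59%, CAGAC in 42.2%, CTTTGAT in 3.21% and CTTTGAA in 4.46%. The median GC content over these windows was 52.4%. A match describes letters in these windows and is not a measured binding site.

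The Id genes did not move as a block. Id3 rose in both later states against EpiLCs, Id1 rose in aEpiLCs, Id2 was lower in pEpiLCs than in aEpiLCs, and Id4 was near the detection limit. Id3 (ENSMUSG00000007872.3, chromosome 4, 136143497 to 136145755, plus strand) had 4.95, 5.72 and 5.27 CPM in EpiLCs, 21.5, 17.5 and 15.0 CPM in aEpiLCs, and 28.4, 13.8 and 14.0 CPM in pEpiLCs. Every library of the later states was above every EpiLC library, and the later states overlapped. The log2 fold change against EpiLCs was 1.75 (SE 0.15, adjusted p = 7.77e-07) in aEpiLCs, or 3.35-fold, and 1.82 (SE 0.30, adjusted p = 0.00279) in pEpiLCs, or 3.52-fold. Without pEpiLC replicate 1 the latter was 1.38 (adjusted p = 9.70e-07). Between pEpiLCs and aEpiLCs the log2 fold change of Id3 was 0.05 (SE 0.30, adjusted p = 0.932), and it was -0.38 (adjusted p = 0.0938) without pEpiLC replicate 1 and -0.068 (adjusted p = 0.928) without aEpiLC replicate 3.

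Id1 (ENSMUSG00000042745.9, chromosome 2, 152736251 to 152737410, plus strand), often used as a readout of BMP signalling, had 1.71, 1.63 and 1.74 CPM in EpiLCs, 4.78, 2.76 and 3.40 CPM in aEpiLCs, and 13.1, 2.23 and 2.65 CPM in pEpiLCs. All libraries of the later states were above EpiLCs, and 2 of the 3 pEpiLC libraries were below all aEpiLC libraries. In aEpiLCs against EpiLCs Id1 rose 2.13-fold, a log2 fold change of 1.09 (SE 0.25, adjusted p = 0.00262). This value was close to the limit of 1, and without aEpiLC replicate 1 it fell to 0.85 (adjusted p = 0.0138). With all 9 libraries in 1 fit, the adjusted p was 0.191. In pEpiLCs against EpiLCs the log2 fold change was 1.81 (SE 0.67, adjusted p = 0.0608), which was not called. It was 0.52 (adjusted p = 0.0974) without pEpiLC replicate 1, whereas Id1 was called without replicate 2 (2.21, adjusted p = 0.0271) or replicate 3 (2.17, adjusted p = 0.0371). DESeq2 gave an adjusted p of 0.00737 for this comparison, and edgeR's likelihood ratio test 0.0174. Between pEpiLCs and aEpiLCs the log2 fold change was 0.71 (SE 0.66, adjusted p = 0.514) and turned to -0.58 (adjusted p = 0.151) without pEpiLC replicate 1.

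Id2 (ENSMUSG00000020644.9, chromosome 12, 25093799 to 25097140, minus strand) had 5.64, 6.33 and 6.31 CPM in EpiLCs, 9.43, 6.92 and 8.23 CPM in aEpiLCs, and 2.49, 5.21 and 4.38 CPM in pEpiLCs. The 3 states did not overlap, with aEpiLCs highest and pEpiLCs lowest. In pEpiLCs against aEpiLCs Id2 fell by 1.03 on the log2 scale (SE 0.27, adjusted p = 0.0406), which is 2.05-fold lower. Without pEpiLC replicate 1 the change was -0.78 (adjusted p = 0.00946), under the limit on size. The call was also lost without pEpiLC replicate 3 (adjusted p = 0.0833) and without aEpiLC replicate 1, 2 or 3 (0.139, 0.0908 and 0.125). Against EpiLCs, the log2 fold change was 0.41 (SE 0.15, adjusted p = 0.0378) in aEpiLCs, below the limit on size, and -0.60 (SE 0.26, adjusted p = 0.0977) in pEpiLCs. Id4 (ENSMUSG00000021379.2, chromosome 13, 48261228 to 48266026, plus strand) had 6 to 12 counts in each library and 0.261 to 0.527 CPM, with overlap between all states. It passed the filter in pEpiLCs against aEpiLCs alone, with a log2 fold change of 0.30 (SE 0.39, adjusted p = 0.652). It overlaps transcripts on the opposite strand.

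For aEpiLCs against EpiLCs, which asks what changed over 24 h without Activin and FGF2, 7 of the 10 genes passed the filter. Of these 3 were called higher (Bmp7, Id1 and Id3), where 7.25% of the 15301 genes tested were called higher, and 0 were called lower, where 5.24% of all genes were. By adjusted p alone 4 of the 7 passed, Id2 being added, against 46.6% of all genes. Libraries of 5 of the 7 did not overlap between states, which also held for 56.1% of all genes. For pEpiLCs against EpiLCs, 3 of 7 were called higher (Bmp7, Chrd and Id3; 7.71% of all 15288 genes) and 0 lower (8.13%). The same 3 passed by adjusted p alone (44.2% of all genes), and 6 of 7 did not overlap (58.6%). For pEpiLCs against aEpiLCs, 8 were tested. Here 3 were called higher (Bmp7, Chrd and Smad6; 2.55% of all 15198 genes) and 1 lower (Id2; 4.74%). All 4 passed by adjusted p alone as well (15.6%), and 4 did not overlap (39.0%). The median log2 fold change of the tested members was 0.41, 1.81 and 0.50 in the 3 comparisons in this order. Over all genes tested, the medians were 0.0023, 0.017 and 0.012. The 1.81 is the value of Id1, which was not called and fell to 0.52 without pEpiLC replicate 1. Each pair of comparisons shares 1 set of 3 libraries, so they are not independent of each other.

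**Figure D2:**
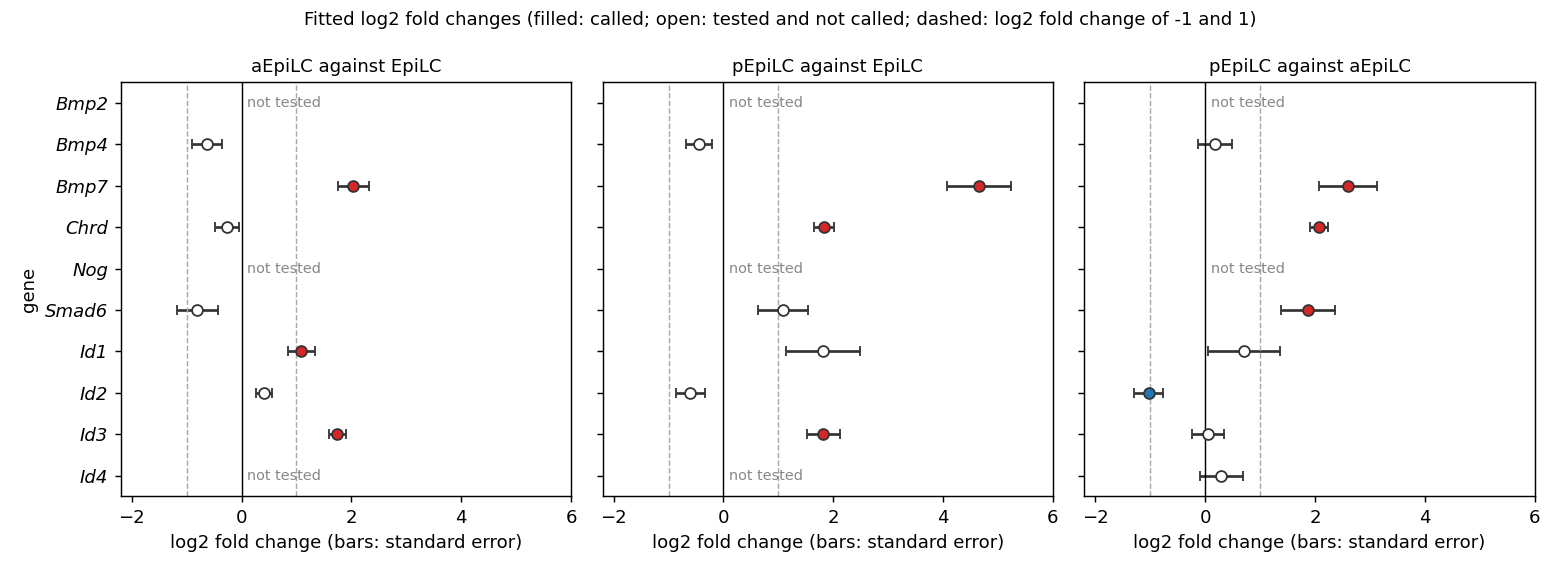
Fitted log2 fold change (horizontal axis) in 3 comparisons of those of the 10 genes that were tested, with standard errors as bars and dashed lines at -1 and 1. Filled points are called genes (red higher, blue lower) and open points are genes tested and not called. Bmp2 and Nog in every panel, and Id4 in both panels against EpiLCs, are marked as not tested. Bmp7 is filled in all 3 panels, Chrd in both pEpiLC panels, and Id2 is the only gene filled in blue.

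The spread within pEpiLCs followed the same library for most members. The level in replicate 1 was 5.35 times the mean of replicates 2 and 3 for Id1, 5.02 times for Bmp2, 3.31 times for Bmp7, 2.50 times for Smad6 and 2.05 times for Id3. It was 0.519 times that mean for Id2. Chrd (1.16 times) and Bmp4 (0.995 times) differed little between the 3 libraries. Leaving replicate 1 out kept the 3 calls against EpiLCs, and against aEpiLCs it kept Bmp7, Chrd and Smad6 but not Id2. The posterior markers T and Mixl1 (647, 37.6 and 36.4 CPM) were also highest in replicate 1, and the epiblast markers Dnmt3b (747, 1608 and 1412 CPM) and Pou3f1 (10.5, 42.8 and 44.3 CPM) lowest. Their part in the spread of the BMP genes was not tested.

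**Figure D3:**
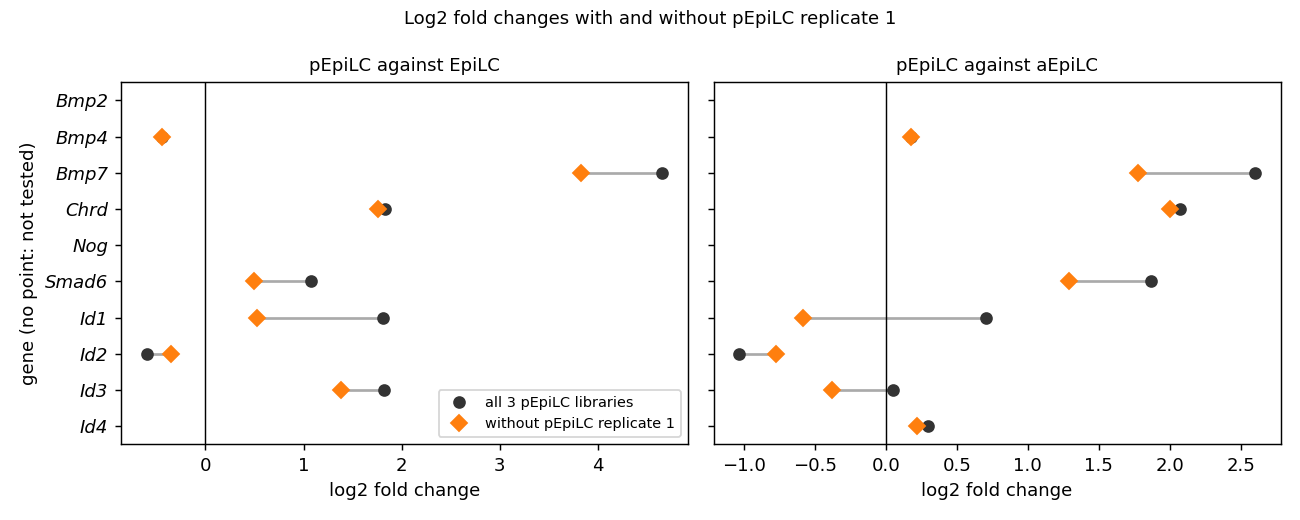
Log2 fold changes (horizontal axes) of the members tested, with all 3 pEpiLC libraries (black circles) and without pEpiLC replicate 1 (orange diamonds), against EpiLCs (left) and aEpiLCs (right). Grey lines join both values of a gene. Chrd and Bmp4 hardly move, and Id1 and Id3 cross 0 against aEpiLCs.

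Beyond the 10 genes, 61 genes of the pathway were listed by role, 58 of them were in the table, and 36 or 37 passed the filter in each comparison. In aEpiLCs against EpiLCs, of 37 tested, 6 were called higher and 5 lower, where 7.25% and 5.24% of all genes were. A gene that reached the count cutoff of the filter in only 1 of the states compared had to differ to be tested. This held for 3 of these 11 (Smad9, Nbl1 and Acvrl1), whose place in the count supports nothing, and for none of the called members. Smad7, an inhibitory SMAD induced by both TGFβ/Activin and BMP signals, had 48.6, 38.9 and 38.8 CPM in EpiLCs, 10.8, 6.33 and 4.65 CPM in aEpiLCs, and 17.6, 23.4 and 22.9 CPM in pEpiLCs. The 3 states did not overlap. Smad7 fell by 2.55 on the log2 scale in aEpiLCs (SE 0.21, adjusted p = 5.49e-07) and was higher in pEpiLCs than in aEpiLCs by 1.54 (SE 0.29, adjusted p = 0.0137), a call lost without aEpiLC replicate 2 (adjusted p = 0.0746). Smad9, which encodes another BMP-responsive SMAD, had 14, 32 and 24 counts in EpiLCs, 3, 3 and 11 in aEpiLCs, and 4, 2 and 4 in pEpiLCs, so the later states were near the limit of 3 counts. Its log2 fold change was -2.01 in aEpiLCs (-2.90 without aEpiLC replicate 3) and -2.74 in pEpiLCs, both against EpiLCs.

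Rgma, which encodes a BMP co-receptor, had 1.06, 1.54 and 1.91 CPM in EpiLCs, 8.35, 8.59 and 8.05 CPM in aEpiLCs, and 14.2, 10.2 and 7.82 CPM in pEpiLCs. It rose by 2.44 (SE 0.20, adjusted p = 5.90e-07) and 2.82 (SE 0.30, adjusted p = 0.000519) on the log2 scale. The other genes named among those called in aEpiLCs were Bmp1, a protease that cleaves chordin (1.64), Bmpr1b, a type I receptor (1.50), and Fstl1, a secreted follistatin-like protein (1.40), all higher, and the ligand gene Bmp8b (-1.26). Bmp8b has a close paralog, Bmp8a, and the sharing of reads between them was not tested, while 11.1% of the expected counts of Bmp8b and 0 of those of Bmp8a were not whole. Nbl1, which encodes a secreted antagonist and passed the filter through its aEpiLC and pEpiLC counts, had 6, 10 and 3 counts in EpiLCs, 23, 20 and 26 in aEpiLCs, and 22, 24 and 26 in pEpiLCs. Chrdl1 (1.19) was also called higher, and Acvrl1 (-1.08) and Fstl3 (-1.01) lower. The call of Fstl3 was lost without aEpiLC replicate 2 or 3 or EpiLC replicate 2. The call of Acvrl1, at under 1 CPM in every library, was lost in 11 of the 13 settings that gave a value.

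In pEpiLCs against EpiLCs, of 36 other pathway genes tested, 11 were called higher and 4 lower, where 7.71% and 8.13% of all genes were. Of these 15, Bmp5, Smad9, Nbl1 and Acvrl1 reached the count cutoff in only 1 of the 2 states. Fst, which encodes follistatin, a secreted protein that binds activins and some BMPs, had 14.6, 13.1 and 13.2 CPM in EpiLCs, 20.6, 16.6 and 18.8 CPM in aEpiLCs, and 427, 186 and 174 CPM in pEpiLCs. It rose by 4.26 on the log2 scale (SE 0.38, adjusted p = 0.000247), and by 3.72 without pEpiLC replicate 1. Against aEpiLCs the rise was 3.81 (SE 0.37, adjusted p = 0.000915), or 3.26 without that library. Bmp5, another ligand gene, had 0 counts in all EpiLC libraries and 18, 12 and 18 counts in pEpiLCs, at least 5.17-fold higher. It could pass the filter only through pEpiLCs. Tll1, a protease related to Bmp1 (1.87, and 1.36 without pEpiLC replicate 1), and Rgmb, a co-receptor (1.81), also rose.

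Msx1, a transcription factor gene and BMP target, had 1.20, 1.16 and 1.22 CPM in EpiLCs, 1.03, 0.452 and 0.690 CPM in aEpiLCs, and 22.2, 2.10 and 2.24 CPM in pEpiLCs. Its log2 fold change against EpiLCs was 2.88 (SE 0.95, adjusted p = 0.0413), and 0.85 (adjusted p = 0.0179) without pEpiLC replicate 1, when it was no longer called. The call was also lost without EpiLC replicate 1, 2 or 3 (adjusted p = 0.118, 0.122 and 0.118). Of the 7 called genes not yet described for this comparison, Bmp1, Smad1, Fstl1 and Smad5 were higher and Acvrl1, Bmp8b and Fstl3 lower, between -1.47 and 1.75 on the log2 scale. The call of Acvrl1 was lost in 8 of 13 settings, among them each of the libraries left out other than pEpiLC replicate 1 (-2.22 without it), and that of Fstl3 without any library other than pEpiLC replicate 1, with adjusted p up to 0.142 and 0.0710. Smad1, a transducer of BMP signals, had 86.0, 31.6 and 25.9 CPM in pEpiLCs against 17.5 to 18.9 CPM in EpiLCs, and its log2 fold change of 1.41 became 0.67 without pEpiLC replicate 1. The Smad1 call was also lost without EpiLC replicate 1, 2 or 3 (adjusted p = 0.0853, 0.0959 and 0.0949). Smad5, at 1.02, dropped below the limit on size without pEpiLC replicate 1 (0.89) or EpiLC replicate 3 (0.99).

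In pEpiLCs against aEpiLCs, of 36 tested, 4 were called higher and 1 lower, where 2.55% and 4.74% of all genes were. Besides Fst and Smad7, Tll1 (1.77, adjusted p = 0.0199) was higher and Bmpr1b was lower (-1.01, adjusted p = 0.0266). The fourth called higher was Bmp5, with 4, 0 and 1 counts in aEpiLCs, which again passed the filter through pEpiLCs alone, and no fold is given for it. The calls of Tll1 and Bmpr1b were each lost when some libraries were left out, among them aEpiLC replicate 2, where the adjusted p was 0.0886 and 0.113. Cer1, a secreted antagonist of BMP, NODAL and WNT, was named after its values were seen. It had 0 to 3 counts in every EpiLC and aEpiLC library and 114, 7 and 13 counts in pEpiLCs, at least 14.8-fold higher, or 3.17-fold with pEpiLC replicate 1 left out, and it was not tested. Median log2 fold changes of the tested pathway genes were 0.16, 0.36 and 0.13 in the 3 comparisons in the order above.

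**Figure D4:**
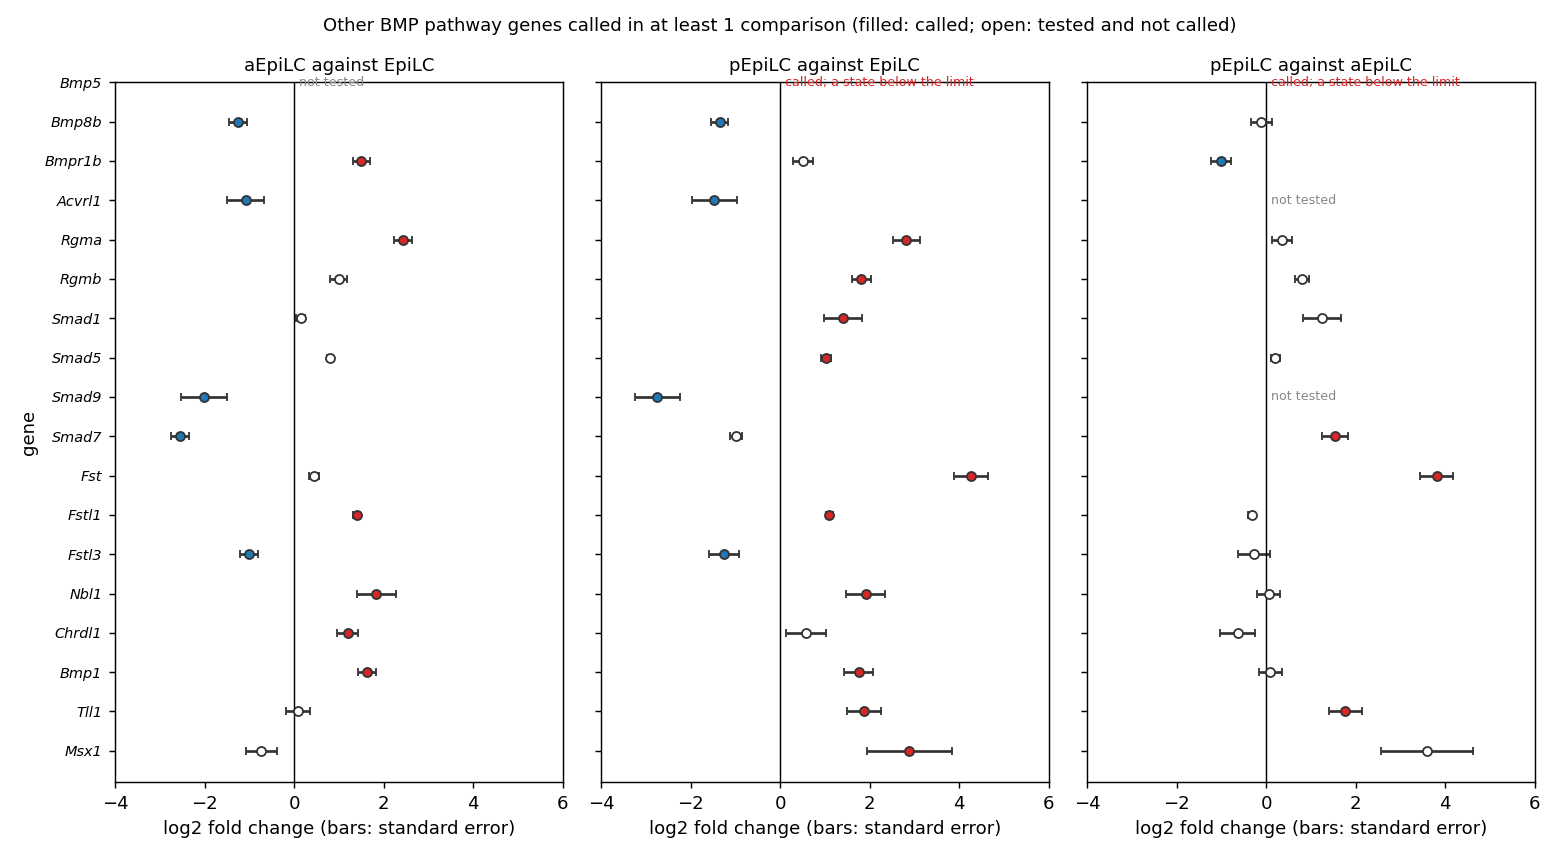
Fitted log2 fold change (horizontal axis, bars are standard errors) of the 18 other pathway genes called in at least 1 comparison. Filled points are called (red higher, blue lower) and open points are not. Smad7 is blue in aEpiLCs against EpiLCs and red in pEpiLCs against aEpiLCs, and Fst is filled in the pEpiLC panels alone. No fold is drawn for Bmp5, whose mean in EpiLCs and aEpiLCs was below the detection limit.

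The genes whose log2 CPM over the 9 libraries followed each member most closely were found among 10725 genes with a mean of at least 5 CPM. The points share 3 states and the same libraries, pEpiLC replicate 1 among them. For Bmp7 they were Spred1 and Pcdhgc3 (Pearson r = 0.996 for both), and for Chrd they were Wnt3 (0.989) and Slc25a3 (0.988). For Smad6 they were Hps5 (0.973) and Appl2 (0.971), and for Bmp4 Tacc1 (0.963) and Atg4d (0.944). Id1 was closest to Cited2 (0.995) and Cdh2 (0.974), Id2 to Amt (0.983) and Cldn3 (0.980), and Id3 to Phldb2 (0.993) and Smo (0.992). For Id4, at its low counts, they were Tmem87a (0.947) and Cyb561d1 (0.901). The lists shared no gene.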

How the data were processed

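Bulk RNA-seq reads of 9 libraries were mapped by the authors with STAR 2.7.9a and counted with RSEM 1.3.1 on GRCm38. The authors deposited RSEM expected counts, that is, each estimated count per gene symbol without normalization, and 20.2% of them were not whole. They were rounded. The annotation, read cleaning and strandedness are not given in the sources used here. Each pair of states was fitted on its 6 libraries with edgeR 4.0.16 (TMM, filterByExpr, quasi-likelihood test) in R 4.3.3. Adjusted p-values (Benjamini-Hochberg) are over all genes tested, and each SE is the log2 fold change divided by the root of F. Limits of detection cover counting error only, whereas SDs and SEs include the spread between libraries. Alternatives used limma 3.58.1 (voom) and DESeq2 1.42.0, among others given in the closing section. Procedures were tested on simulated data with the same spread in all libraries, which does not cover an outlying library such as pEpiLC replicate 1. Positions are from GENCODE vM21. The members, lists and motifs were chosen with earlier results of these data known. Named were all members, the 8 other called pathway genes of largest fold per comparison, and the 2 genes most like each member. Bmp10, Bmp15 and Gdf2 were not analysed here.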

Additional observations from a re-analysis of the deposited data

How the results depend on the processing

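Other settings were DESeq2, RLE scaling, the likelihood ratio test in edgeR, voom with quality weights, no filter, at least 10 counts in every library, all 9 libraries in 1 fit, the replicate block, adjusted p alone, and leaving out each replicate. Of the members' alternative values, 276 kept direction and side of the threshold, 16 lost a call, 8 gained one and 7 reversed. Other pathway genes were followed only in comparisons where they were called, so none could gain a call and a reversal was unlikely. Of their values, 54 lost a call and 0 reversed.

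For other pathway genes in aEpiLCs against EpiLCs, 22 passed by adjusted p alone against 11 called. For pEpiLCs against aEpiLCs, the likelihood ratio test and the fit of all 9 libraries each called 8 against 5, and leaving out 1 replicate gave 1 to 7. Leaving out 1 replicate gave 3 to 5 members in pEpiLCs against EpiLCs (5 without pEpiLC replicate 3, Id1 being added and Bmp2, which passes the filter through pEpiLCs alone) and 1 to 4 in pEpiLCs against aEpiLCs. It was 1, Chrd, without aEpiLC replicate 1, 2 or 3. Reversals were all in pEpiLCs against aEpiLCs and in values not called. Voom gave -0.37 for Id1 and -0.31 for Id3. Leaving out 1 replicate gave -0.58 to 1.11 for Id1, -0.38 to 0.23 for Id3 and -0.018 to 0.41 for Bmp4. Voom also put Id1 in aEpiLCs against EpiLCs (0.99) and Id2 in pEpiLCs against aEpiLCs (-0.80) below the limit on size. The cause was not tested.

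Whether same-numbered replicates of different states belong together is not stated. Correlations of same-numbered deviations ranged from -0.060 to 0.172, which cannot decide it. With the replicate block, 3, 4 and 3 members were called in the 3 comparisons in the order of the report, the log2 fold change of Id3 in pEpiLCs against aEpiLCs was -0.017, Smad6 was called in pEpiLCs against EpiLCs (1.02, adjusted p = 0.0225), and Id2 was not in pEpiLCs against aEpiLCs (adjusted p = 0.0636). Depth limits Nog, Bmp2 and Id4 most, at 12 counts or fewer per library apart from Bmp2 in pEpiLCs.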
